A study of Mus musculus with 12 samples.

Results

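The genes described here are 37 subunits of the co-repressor complexes that carry the histone deacetylases HDAC1, HDAC2 or HDAC3. They were chosen by name and not by a cut on their values. Gene identifiers of the deposited table were matched to a list of SIN3, NuRD, CoREST and NCoR components. That list was made with earlier results of these data known. The table holds 47069 genes, of which 17286 had enough counts to be tested. All 37 subunits were among those tested: 12 of SIN3, 9 of CoREST, 10 of NuRD, 2 shared by SIN3 and NuRD, and 4 of NCoR.

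The libraries come from bilateral frontal cortex of male C57BL/6 mice, 3 per group. The wild-type mice and the mice with the genotype HDAC2(loxP,loxP), CamKIIa-Cre(+,-) were each given vehicle or clozapine, an antipsychotic drug, at 10 mg/kg in a chronic regimen. In the latter genotype the Cre recombinase is driven by the promoter of Camk2a, a kinase of forebrain excitatory neurons, so other cells of the cortex keep an intact Hdac2 allele. The age of the animals, the length of the treatment, the vehicle and whether the wild-type mice carried the loxP sites are not given in the sources used here. Nor do the labels say that every library is a separate animal, so the p-values describe only the variation among libraries, which may be technical. Values below are listed in the order wild type on vehicle (libraries 1, 3 and 4), wild type on clozapine (2, 3 and 5), labelled knockout on vehicle (2, 4 and 5) and labelled knockout on clozapine (3, 4 and 5).

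HDAC1 and HDAC2 remove acetyl groups from histones and act almost entirely as parts of multi-subunit complexes. SIN3 proteins are scaffolds that transcription factors recruit to promoters. NuRD joins the deacetylase to a chromatin remodelling ATPase of the CHD family and to proteins that read methylated DNA. CoREST joins it to the histone demethylase LSD1, encoded by Kdm1a, and serves the repressor REST, which silences neuronal genes outside neurons. NCoR holds HDAC3 instead and silences the targets of unliganded nuclear receptors.

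Hdac2, the gene the genotype label names, was not lower in the labelled knockout. Its level was 75.7, 63.4 and 70.0 CPM (counts scaled to library size with TMM factors) in wild type on vehicle and 75.5, 72.4 and 73.5 CPM in wild type on clozapine. With the labelled knockout genotype it was 75.4, 76.6 and 73.3 CPM on vehicle and 73.9, 70.5 and 71.2 CPM on clozapine, so the genotypes overlapped. The difference averaged over treatments on the log2 scale was 0.03 (95% interval -0.05 to 0.12, SE 0.04, n = 6 against 6, edgeR adjusted p = 0.651). A count over the whole gene also takes reads from exons outside the deleted part, and the labels do not name the deleted exons. The group is therefore called the labelled knockout throughout.

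Markers were set beside the tissue label. Slc17a7, the vesicular glutamate transporter of cortical excitatory neurons, lay between 1474 and 1918 CPM. Of 5 striatal markers, Drd1, Drd2, Adora2a and Rgs9 lay between 0.288 and 9.99 CPM, and Ppp1r1b between 109.6 and 154 CPM. Total counts ranged from 23408372 to 28069638 per library, and the subunits had between 92 and 14361 counts in a library. On the first principal component, 20.3% of the variance, the wild-type libraries lay between -19.8 and -8.50 and the labelled knockout between 8.49 and 18.0. The choroid plexus transcript Ttr reached 53.3 CPM in library 3 of wild type on vehicle, against no more than 4.15 CPM elsewhere. Its part in the results was not tested.

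Per 1000 bases of annotated exon, levels ran from 0.652 RPKM for Rest to 63.4 RPKM for Chd3, and NuRD held the highest. Chd3, a remodelling ATPase, reached 63.4 ± 4.55 RPKM (CPM per 1000 bases of annotated exon, SD, n = 12), and Mbd3, a methyl-CpG-binding family member, 57.3 ± 2.28 RPKM. Chd5, the ATPase typical of neurons, stood at 34.3 ± 2.35 RPKM and Chd4, the ATPase found in most tissues, at 24.4 ± 0.898 RPKM. The metastasis-associated scaffold Mta1 had 25.4 ± 0.921 RPKM, against 15.9 ± 0.824 for Mta3 and 12.6 ± 0.485 for Mta2. The lowest level in NuRD was that of Gatad2a, with 5.80 ± 0.196 RPKM. The histone chaperones shared with SIN3 had 45.0 ± 1.56 RPKM for Rbbp7 and 12.8 ± 0.464 RPKM for Rbbp4.

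SIN3 subunits ranged from 2.53 RPKM for Arid4b, a chromatin-binding subunit, to 30.9 RPKM for Sap30l, an adaptor. The length used is that of all annotated exons of a gene, 16965 bases for Arid4b. In CPM its mean was 42.9, above the 33.1 of Sin3a. Sin3b, with 10.0 ± 0.546 RPKM, was higher per length than its paralogue Sin3a, with 6.14 ± 0.542 RPKM. CoREST subunits had the lowest median of the groups, 5.21 RPKM. Kdm1a led them with 13.2 ± 0.817 RPKM. The scaffold Rcor1 and its paralogue Rcor2 lay side by side at 4.89 ± 0.332 and 5.21 ± 0.404 RPKM, a gap within their spread, while Rcor3 had 0.767 ± 0.0518 RPKM. Annotated exons span 13622 bases in Rcor3 and 3157 in Rcor2, and their mean CPM were closer, 10.4 and 16.5. Rest had the lowest level of all 37 subunits, 0.652 ± 0.0813 RPKM, a level that 18.3% of the tested genes did not exceed. In NCoR, the scaffold Ncor1 had 17.7 ± 1.5 RPKM. The WD40 proteins that bind it, Tbl1x and Tbl1xr1, had 9.21 ± 0.626 and 7.21 ± 0.593 RPKM, and Gps2, which bridges them, had 10.5 ± 0.751 RPKM. Across all 12 libraries the coefficient of variation of a subunit lay between 3.12% and 19.1%, with a median of 6.2% against 9.78% for all tested genes. All tested genes include some with fewer counts than any subunit. The spreads, absolute differences and interval shares compared here and below are therefore not matched for counts. In whole tissue, fewer cells of a type and less RNA per cell cannot be told apart.

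**Figure D1:**
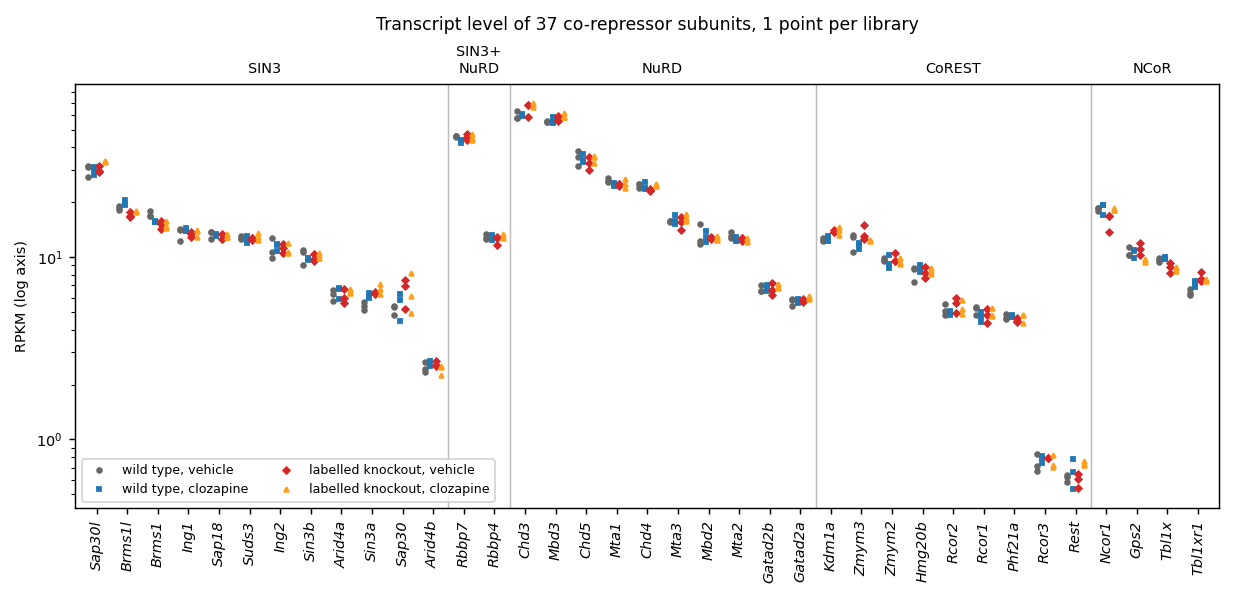
Level of each subunit in RPKM on a log axis, 1 point per library, ordered within each complex by mean level and coloured by group. Chd3 and Mbd3 sit at the top, Rcor3 and Rest below 1 RPKM, and the 4 groups overlap for most genes.

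Between genotypes, 6 of the 37 subunits changed when both treatments were averaged (labelled knockout against wild type, 6 libraries each). Tbl1xr1, Sin3a, Kdm1a and Chd3 rose, and Tbl1x and Brms1l fell. All 6 changes were small, between -10.8% and 13.0%. The called share of the subunits, 16.2%, stands beside 10.5% of all tested genes. By direction, 4 subunits were higher, against 5.52% of all genes, and 2 were lower, against 5.01%. The median of the absolute log2 difference was 0.04 over the subunits and 0.09 over all genes tested, and the signed medians were -0.008 and -0.003. At an unadjusted p under 0.05, 9 subunits passed, 24.3%, against 25.5% of all genes. In 3 subunits, 8.11%, no library of one genotype lay within the range of the other, against 4.04% of all genes; these were Tbl1x, Brms1l and Kdm1a. Among all tested genes, which were not matched for counts, the 95% interval of the genotype difference stayed within 1.25-fold for 60.8%. It did so for 36 of the 37 subunits. The exception was Sap30, an adaptor of SIN3 with few counts, at 0.28 (interval 0.01 to 0.55, edgeR adjusted p = 0.183). Its level ranged from 5.25 to 7.36 CPM in wild type and from 5.81 to 9.60 CPM in the labelled knockout.

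**Figure D2:**
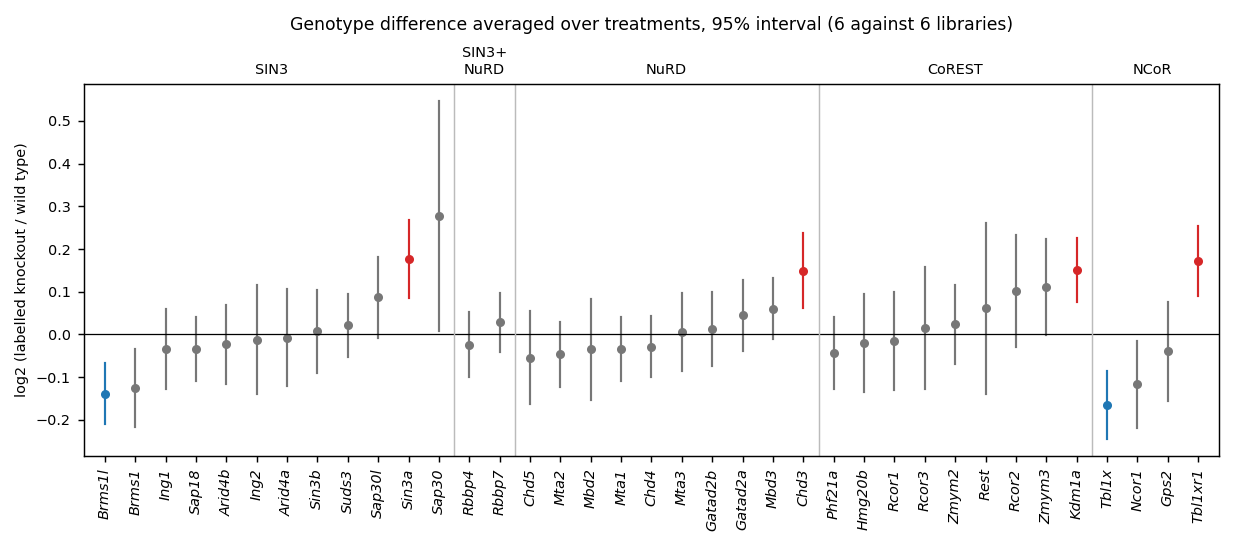
Log2 difference of the labelled knockout from wild type, averaged over treatments, with its 95% interval, for each subunit grouped by complex. Red marks the 4 subunits past an adjusted p of 0.05 that were higher, blue the 2 that were lower, and grey the other 31, most of whose intervals cross 0.

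Promoter windows of 4 of these 6 genes are printed because the genes passed between genotypes, Tbl1xr1, Sin3a and Kdm1a higher and Brms1l lower. Shared regulation was not tested. They are the RefSeq sequences (GRCm38.p6) of up to 250 bases before the transcription start, 5′ to 3′ on the gene's strand. Bases over an annotated exon on the same strand were left out. Exons on the opposite strand were not considered. Capitals mark matches to a GC box (GGGCGG) or a CCAAT box (CCAAT) on either strand. The cyclic AMP response element TGACGTCA and the ETS core CCGGAAG were also searched.
Tbl1xr1, chr3:22076402-22076651, plus strand: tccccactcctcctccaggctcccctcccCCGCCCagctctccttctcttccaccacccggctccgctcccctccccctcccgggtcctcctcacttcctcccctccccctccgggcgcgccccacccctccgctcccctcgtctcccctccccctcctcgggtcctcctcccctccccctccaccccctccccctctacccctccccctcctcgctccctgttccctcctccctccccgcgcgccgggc
Sin3a, chr9:57071790-57072039, plus strand: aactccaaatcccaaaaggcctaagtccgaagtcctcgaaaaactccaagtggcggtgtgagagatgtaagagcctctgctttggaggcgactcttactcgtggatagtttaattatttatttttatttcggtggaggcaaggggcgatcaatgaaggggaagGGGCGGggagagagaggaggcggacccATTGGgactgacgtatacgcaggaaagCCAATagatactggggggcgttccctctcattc
Kdm1a, chr4:136602724-136602973, minus strand: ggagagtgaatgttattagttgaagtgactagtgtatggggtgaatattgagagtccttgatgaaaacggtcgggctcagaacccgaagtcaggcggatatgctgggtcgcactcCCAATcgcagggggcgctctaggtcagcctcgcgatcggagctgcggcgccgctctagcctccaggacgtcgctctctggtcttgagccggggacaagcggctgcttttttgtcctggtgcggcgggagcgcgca
Brms1l, chr12:55836116-55836323, plus strand: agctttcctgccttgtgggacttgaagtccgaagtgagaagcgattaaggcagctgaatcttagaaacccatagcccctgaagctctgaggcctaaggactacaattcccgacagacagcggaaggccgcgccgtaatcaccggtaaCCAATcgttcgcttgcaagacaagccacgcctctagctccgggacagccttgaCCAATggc
The Tbl1xr1 window holds 1 GC box match, the Kdm1a window 1 CCAAT match, the Brms1l window of 208 bases 2 CCAAT matches, and the printed Sin3a window 1 GC box and 2 CCAAT matches. A second RefSeq window of Sin3a, at chr9:57076126-57076375, is not printed and has 3 GC box and 3 CCAAT matches. In all 32851 promoter windows of 250 bases, 32.7% hold a GC box match and 33.8% a CCAAT match. In windows of 208 bases the shares are 26.2% and 29.6%. These background windows were not trimmed for exons. The other motifs have no match in the printed windows or the second Sin3a window. The element TGACGTCA is in 1.5% of all windows of 250 bases and CCGGAAG in 6.9%. No sequence is printed for Tbl1x or Chd3.

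The NCoR complex held the clearest pair of changes, since its WD40 paralogues moved in opposite directions. TBL1X and TBLR1, encoded by Tbl1x and Tbl1xr1, are exchange factors that bind NCoR and are needed both to repress and to release nuclear receptor targets. Tbl1xr1 (ENSMUSG00000027630.13, GRCm38 chr3:22076652-22216594) had 56.8, 55.0 and 59.3 CPM in wild type on vehicle and 66.0, 64.1 and 61.3 CPM in wild type on clozapine. It had 73.9, 67.9 and 66.2 CPM in the labelled knockout on vehicle and 65.7, 66.5 and 67.8 CPM on clozapine. The wild-type vehicle libraries were lowest, the labelled knockout on vehicle reached highest, and 1 wild-type clozapine library reached into the range of the labelled knockout on clozapine. Averaged over treatments Tbl1xr1 rose, with a log2 difference of 0.17 (95% interval 0.09 to 0.25, SE 0.04, edgeR adjusted p = 0.00907).

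Tbl1x (ENSMUSG00000025246.13, chrX:77511013-77662983) went the other way. It had 66.5, 67.7 and 69.8 CPM in wild type on vehicle, 70.4, 69.2 and 68.5 on clozapine, 65.4, 62.0 and 57.4 in the labelled knockout on vehicle and 61.7, 58.8 and 62.4 on clozapine. Every wild-type library lay above every labelled knockout library. Tbl1x was 68.7 ± 1.44 CPM in wild type and 61.3 ± 2.83 CPM in the labelled knockout (SD, n = 6), and the averaged log2 difference was -0.16 (SE 0.04, interval -0.24 to -0.08, edgeR adjusted p = 0.0107). Both calls held in all 20 alternative analyses, with a largest adjusted p of 0.0305 for Tbl1xr1 and 0.0333 for Tbl1x.

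Ncor1 (ENSMUSG00000018501.17, chr11:62316426-62458541), the scaffold of the complex, had 237, 239 and 229 CPM in wild type on vehicle and 246, 246 and 219 CPM on clozapine. On the labelled knockout background it had 215, 216 and 177 CPM on vehicle and 238, 233 and 233 CPM on clozapine. The labelled knockout on vehicle was low, most of all library 5, and the other 3 groups overlapped. The averaged log2 difference of -0.12 (interval -0.22 to -0.01, edgeR adjusted p = 0.137) did not pass. Gps2 (ENSMUSG00000023170.14, chr11:69913888-69916591), an inhibitor of signalling to JNK and an integral subunit, had 16.4, 18.1 and 16.5, then 17.6, 15.8 and 17.4, then 17.7, 19.1 and 16.4, and then 15.1, 15.7 and 15.5 CPM in the 4 groups. Its genotypes overlapped, with an averaged log2 difference of -0.04 (interval -0.16 to 0.08).

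**Figure D3:**
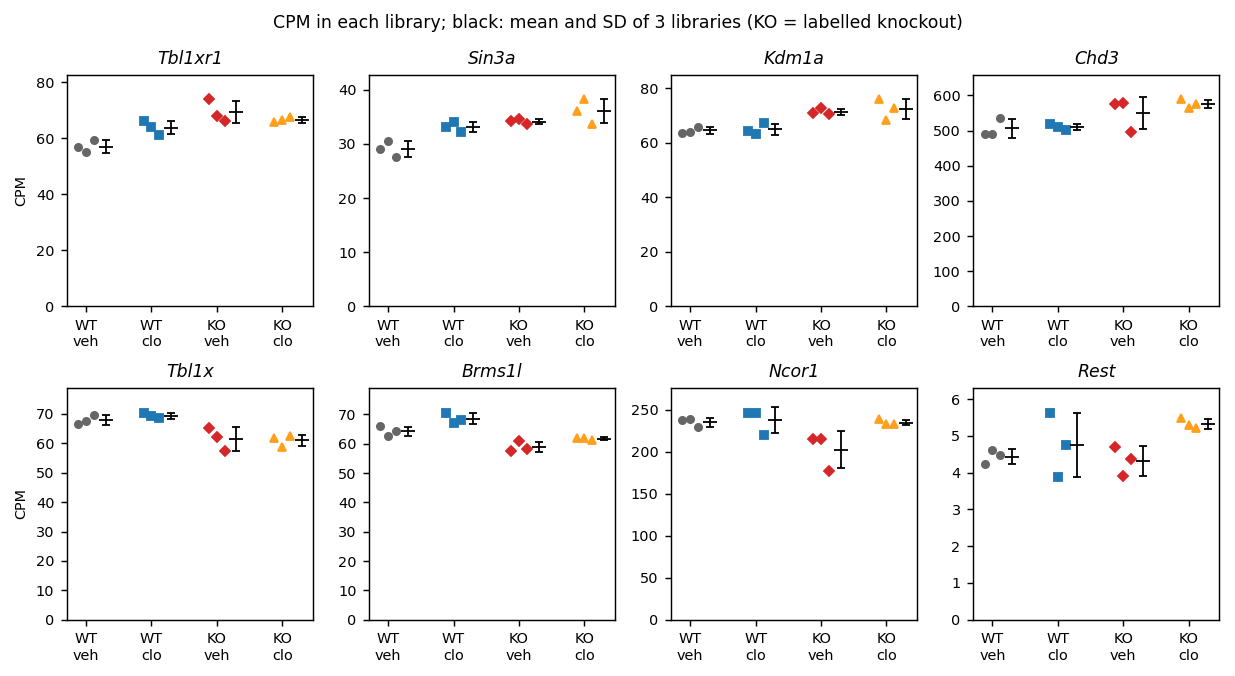
CPM in each library for 8 subunits, by group (WT wild type, KO labelled knockout, veh vehicle, clo clozapine), with the mean and SD of 3 libraries in black and axes from 0. Tbl1x, Brms1l and Kdm1a separate the genotypes without overlap, and Ncor1 is low in the labelled knockout on vehicle.

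In SIN3, the scaffold Sin3a rose and the subunit Brms1l fell, and their paralogues did not pass. Sin3a (ENSMUSG00000042557.14, chr9:57072040-57128366) had 29.1, 30.4 and 27.6 CPM in wild type on vehicle and 33.0, 34.1 and 32.2 CPM on clozapine. Labelled knockout libraries had 34.2, 34.5 and 33.6 CPM on vehicle and 36.1, 38.2 and 33.7 CPM on clozapine. The 3 wild-type vehicle libraries were the lowest of the 12, and wild type on clozapine reached into the range of the labelled knockout. The averaged log2 difference was 0.18 (SE 0.04, interval 0.08 to 0.27, edgeR adjusted p = 0.0156).

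Sin3b (ENSMUSG00000031622.15, chr8:72723285-72758201), the other scaffold, had 66.2, 78.2 and 80.7 CPM in wild type on vehicle, 72.6, 71.2 and 72.8 on clozapine, 72.0, 76.9 and 70.2 in the labelled knockout on vehicle and 77.2, 75.4 and 72.4 on clozapine. The genotypes overlapped fully, and the averaged log2 difference was 0.01 (interval -0.09 to 0.10). Brms1l (ENSMUSG00000012076.7, chr12:55836324-55869736), a paralogue of the breast cancer metastasis suppressor Brms1, had 65.9, 62.7 and 64.2 CPM in wild type on vehicle and 70.6, 67.1 and 68.0 CPM on clozapine. It had 57.6, 60.9 and 58.2 CPM in the labelled knockout on vehicle and 61.9, 62.1 and 61.3 CPM on clozapine. No labelled knockout library reached the wild-type range. Brms1l fell by 0.14 in log2 units (95% interval -0.21 to -0.07, SE 0.03, edgeR adjusted p = 0.0145).

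The other 9 SIN3 subunits did not pass in the averaged comparison. Brms1 itself ranged from 27.2 to 31.5 CPM in wild type and from 25.1 to 27.7 CPM in the labelled knockout, with a log2 difference of -0.13 (edgeR adjusted p = 0.0752). After correcting for exon length and GC share it passed, at -0.17 (edgeR adjusted p = 0.0147). Its value is uncertain, because 79.0% of its exon bases lie under exons of another annotated gene on the same strand. The PHD-finger subunits that bind methylated histone H3, Ing1 and Ing2, and the retinoblastoma-binding pair Arid4a and Arid4b all lay between -0.03 and -0.01. The adaptors Sap18, Sap30l and Suds3 lay between -0.03 and 0.09.

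In CoREST, Kdm1a rose and the other 8 genes of the group did not pass. Kdm1a (ENSMUSG00000036940.15, chr4:136550540-136602723), the flavin-dependent demethylase of histone H3 lysine 4, had 63.7, 64.1 and 65.9 CPM in wild type on vehicle and 64.5, 63.3 and 67.2 CPM on clozapine. Labelled knockout libraries had 70.8, 72.7 and 70.8 CPM on vehicle and 76.0, 68.4 and 72.9 CPM on clozapine. The 6 labelled knockout libraries all exceeded the 6 wild-type libraries. Kdm1a was 64.8 ± 1.5 CPM in wild type and 71.9 ± 2.56 CPM in the labelled knockout, a log2 difference of 0.15 (SE 0.04, interval 0.08 to 0.23, edgeR adjusted p = 0.0129).

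Rcor1 (ENSMUSG00000037896.17, chr12:111039351-111115901), the scaffold that ties Kdm1a to the deacetylase, had 29.8, 30.4 and 27.3, then 26.6, 28.5 and 25.1, then 27.3, 29.6 and 24.6, and then 27.1, 29.9 and 27.3 CPM in the 4 groups. These overlapped throughout, with an averaged log2 difference of -0.02 (interval -0.13 to 0.10). Rest (ENSMUSG00000029249.15, chr5:77265491-77286432), the DNA-binding repressor, had 4.22, 4.61 and 4.48 CPM in wild type on vehicle and 5.63, 3.88 and 4.76 CPM on clozapine. In the labelled knockout it had 4.69, 3.90 and 4.36 CPM on vehicle and 5.48, 5.29 and 5.21 CPM on clozapine. The genotypes overlapped, and the averaged log2 difference of 0.06 had a wide interval, -0.14 to 0.26. Rcor2, Rcor3, the reader Phf21a, the HMG-box protein Hmg20b and the zinc finger proteins Zmym2 and Zmym3 lay between -0.04 and 0.11.

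In NuRD, Chd3 rose and the remaining 9 subunits did not pass. Chd3 (ENSMUSG00000018474.17, chr11:69343273-69369406) had 491, 491 and 536 CPM in wild type on vehicle and 518, 510.0 and 500.3 CPM on clozapine. Labelled knockout libraries had 574, 579 and 497 CPM on vehicle and 589, 565 and 575 CPM on clozapine. Of the 6 labelled knockout libraries, 5 exceeded every wild-type library, and vehicle 5 lay within the wild-type range. The averaged log2 difference was 0.15 (SE 0.04, interval 0.06 to 0.24, edgeR adjusted p = 0.0301). This call was the least stable of the 6: it held in 12 of 20 alternative analyses and in 5 of the 12 in which 1 library was left out, with a largest adjusted p of 0.0805 without wild-type vehicle 3.

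Chd4 (ENSMUSG00000063870.12, chr6:125095981-125130591) had 192, 203 and 202 CPM in wild type on vehicle, 207, 189 and 191 on clozapine, 186, 191 and 185 in the labelled knockout on vehicle and 201, 201 and 196 on clozapine. The labelled knockout on vehicle lay just below wild type on vehicle and the other groups overlapped, with an averaged log2 difference of -0.03 (interval -0.10 to 0.04). Mta1 (ENSMUSG00000021144.14, chr12:113098278-113137206), the scaffold on which HDAC1 and HDAC2 dock, had 79.7, 80.9 and 84.5, then 76.5, 79.4 and 78.4, then 76.2, 78.4 and 78.3, and then 77.8, 83.1 and 74.3 CPM. Its averaged log2 difference was -0.03 (interval -0.11 to 0.04). The other NuRD subunits (Mta2, Mta3, Chd5, Mbd2, Mbd3, Gatad2a and Gatad2b) lay between -0.05 and 0.06. The shared chaperones Rbbp4 and Rbbp7, which hold histones for the deacetylase, lay at -0.02 and 0.03.

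Ratios of paralogues within a library do not depend on how libraries are scaled to each other. The ratio of Tbl1xr1 to Tbl1x, both per length, was 0.665 ± 0.0178 in wild type on vehicle, 0.728 ± 0.0179 in wild type on clozapine, 0.892 ± 0.0240 in the labelled knockout on vehicle and 0.866 ± 0.0264 on clozapine (SD, n = 3). The wild-type range of 0.644 to 0.742 and the labelled knockout range of 0.843 to 0.914 did not meet. Of 16 paralogue pairs compared, this was the only pair whose genotypes did not overlap. The ratio of Chd3 to Chd4 ranged from 2.30 to 2.56 in wild type and from 2.55 to 2.92 in the labelled knockout. The ratio of Sin3a to Sin3b ranged from 0.467 to 0.601 in wild type on vehicle and from 0.613 to 0.654 in the labelled knockout on vehicle, whereas on clozapine the genotypes overlapped. These ratios use the same libraries as the tests above and carry no p-value of their own. The pairs were chosen after the values were seen, and Tbl1x alone already separated the genotypes. The separation of its ratio is therefore no further support.

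**Figure D4:**
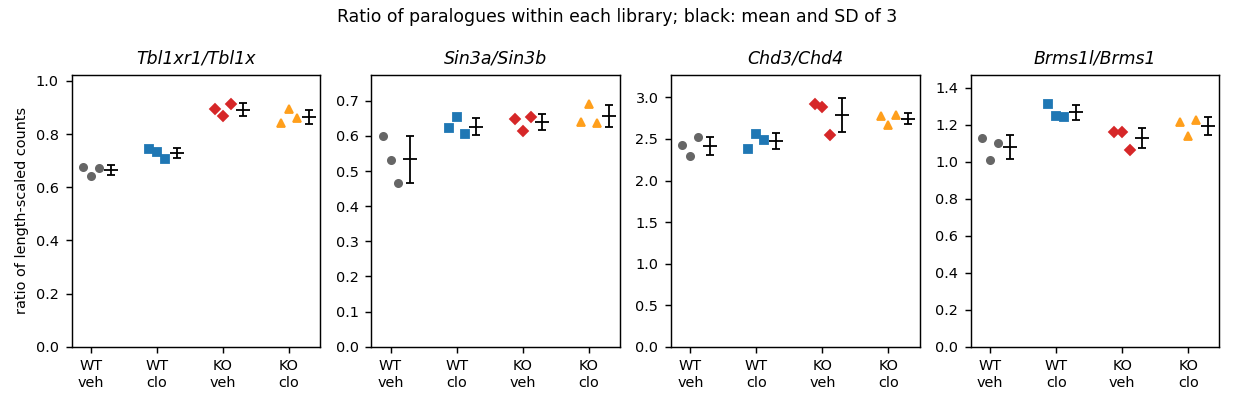
Ratio of length-scaled counts for 4 pairs of paralogues in each library, by group, with the mean and SD of 3 libraries in black and axes from 0. The ratio of Tbl1xr1 to Tbl1x lies between 0.644 and 0.742 in wild type and between 0.843 and 0.914 in the labelled knockout.

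Under vehicle alone, 2 subunits differed between genotypes and both were higher, Tbl1xr1 and Sin3a. Among all tested genes 9.16% were called, 4.01% higher and 5.15% lower. At an unadjusted p under 0.05, 7 subunits passed, 18.9%, against 23.8% of all genes. Tbl1xr1 rose from 57.0 ± 2.17 to 69.3 ± 4.04 CPM (log2 0.28, SE 0.05, edgeR adjusted p = 0.00481) and Sin3a from 29.1 ± 1.42 to 34.1 ± 0.473 CPM (log2 0.23, SE 0.06, edgeR adjusted p = 0.0267). Ncor1, at -0.22, was next and missed the threshold (edgeR adjusted p = 0.0560). DESeq2 called it, with an adjusted p of 0.0332. In 11 subunits, 29.7%, the vehicle libraries of the genotypes did not overlap, against 27.3% of all genes. The Sin3a call was lost without wild-type vehicle 1 or 4, or without any of the 3 labelled knockout vehicle libraries, with adjusted p between 0.0562 and 0.0833. With only these 2 groups in the fit 1 subunit was called, against 6.48% of all genes. Correcting for exon length and GC share gave 6 subunits, against 8.8% of all genes.

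Under clozapine, no subunit passed between genotypes, while 2% of all genes did. At an unadjusted p under 0.05, 5 subunits passed, 13.5%, against 15.9% of all genes, and in 10 subunits, 27.0%, the genotypes did not overlap, against 22.5%. No alternative analysis called a subunit here except the one without labelled knockout vehicle 5, which called Chd3 and 2.43% of all genes. The smallest adjusted p belonged to Tbl1x, at -0.19 (edgeR adjusted p = 0.0877). Brms1l followed at -0.15 (edgeR adjusted p = 0.116), Kdm1a at 0.16 (edgeR adjusted p = 0.128) and Chd3 at 0.18 (edgeR adjusted p = 0.134). Their estimates under vehicle were -0.14, -0.13, 0.15 and 0.12, in the same order. The difference between these estimates was tested by the interaction, in which none of the 37 subunits passed, against 0.654% of all genes. At an unadjusted p under 0.05, 1 subunit and 13.6% of all genes passed the interaction. That subunit was Tbl1xr1, whose genotype difference was 0.28 under vehicle and 0.06 under clozapine (interaction -0.22, interval -0.38 to -0.06, edgeR adjusted p = 0.220).

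None of the 37 subunits passed between clozapine and vehicle, in either genotype. In wild type 0.816% of all genes were called, and in the labelled knockout 0.0231%. At an unadjusted p under 0.05, edgeR passed 3 subunits in wild type, 8.11% against 11.6% of all genes, and 4 in the labelled knockout, 10.8% against 12.2%. The clozapine and vehicle libraries did not overlap in 6 subunits in wild type, 16.2% against 15.6% of all genes, and in 8 in the labelled knockout, 21.6% against 18.7%. No alternative analysis, DESeq2 and limma-voom included, called a subunit in either comparison. The 95% interval lay within 1.25-fold for 35 subunits in wild type and 33 in the labelled knockout. Among all genes, not matched for counts, it did so for 51.7% and 51.2%. The subunits' median log2 difference was 0.007 in wild type and 0.03 in the labelled knockout, and that of all genes 0.005 and -0.002.

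The smallest p-values in wild type were those of Sin3a, with 29.1 ± 1.42 CPM on vehicle and 33.1 ± 0.923 CPM on clozapine (log2 0.19, interval 0.06 to 0.32, edgeR adjusted p = 0.194), and Tbl1xr1, with 57.0 ± 2.17 and 63.8 ± 2.39 CPM (log2 0.16, edgeR adjusted p = 0.211). In both genes the 3 wild-type vehicle libraries lay below the 3 clozapine libraries, and these same vehicle libraries are the reference of the genotype comparison under vehicle. The clozapine and genotype estimates of these 2 genes therefore share their control and are no independent observations. In the labelled knockout the smallest p-values were those of Ncor1, with 202 ± 22.2 CPM on vehicle and 235 ± 3.33 on clozapine (log2 0.21, edgeR adjusted p = 0.196), and Gps2, with 17.7 ± 1.35 and 15.4 ± 0.332 CPM (log2 -0.20, edgeR adjusted p = 0.299). The Ncor1 estimate shares the labelled knockout vehicle libraries with its genotype estimate of -0.22. Rest, at 0.30 in the labelled knockout, had an interval of 0.02 to 0.58 and the lowest counts of the 37. Averaged over genotypes no subunit passed, against 0.15% of all genes, and 4 passed at an unadjusted p under 0.05, 10.8% against 11.2%. Sin3a had the smallest p-value (log2 0.13, edgeR adjusted p = 0.242).

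**Figure D5:**
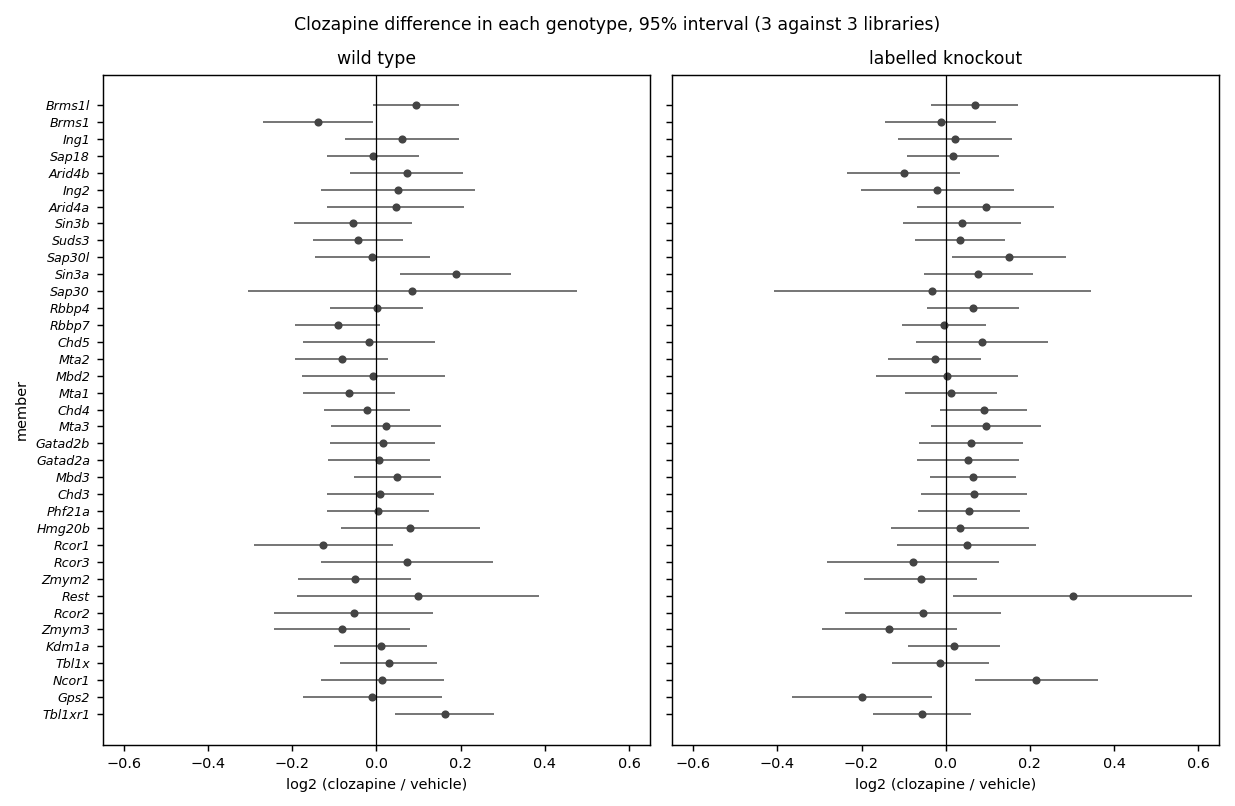
Log2 difference of clozapine from vehicle in wild type (left) and in the labelled knockout (right), with the 95% interval, for the 37 subunits. No estimate passes the adjusted threshold, and the widest intervals belong to Sap30 and Rest.

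The deacetylases themselves did not pass in any of the 7 comparisons. Hdac1 lay between 18.2 and 25.8 CPM over all libraries and Hdac3 between 69.5 and 82.7 CPM. Averaged genotype differences were 0.13 for Hdac1 (interval -0.02 to 0.28) and 0.01 for Hdac3 (interval -0.07 to 0.09). Of 20 further genes of these complexes, 19 were tested.

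Among these, Rere, an atrophin that recruits HDAC1 and HDAC2, had 149, 157 and 148 CPM in wild type on vehicle and 147, 149.6 and 141 CPM on clozapine. Libraries of the labelled knockout had 127, 134 and 122 CPM on vehicle and 133, 147 and 138 CPM on clozapine. The genotypes did not overlap on vehicle and overlapped on clozapine. Rere fell by 0.25 under vehicle (edgeR adjusted p = 0.00940). Pwwp2b, a subunit of a NuRD variant, had 10.2 ± 1.17 CPM in wild type and 13.0 ± 0.988 CPM in the labelled knockout on vehicle (SD, n = 3) and rose by 0.35 (edgeR adjusted p = 0.0335). Averaged over treatments both also passed, Rere at -0.16 and Pwwp2b at 0.24. Under clozapine alone and in the interaction none of the 19 passed.

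A list of 15 neuronal genes with known REST sites, repressed by REST outside neurons, was set beside the low level of Rest. Averaged over treatments, Stmn2, a tubulin-binding protein gene, rose by 0.14 (edgeR adjusted p = 0.0123) and Tubb3, a neuronal tubulin, by 0.14 (edgeR adjusted p = 0.0489). Bdnf, a neurotrophin, fell by 0.34 (edgeR adjusted p = 0.00680). The other 12 did not pass. Among all tested genes 10.5% passed, 5.52% higher and 5.01% lower. The median log2 difference of the list was -0.02. Bdnf had 46.7, 40.6 and 39.7 CPM in wild type on vehicle, 27.4, 33.9 and 24.6 CPM on clozapine, 27.9, 30.6 and 28.5 CPM in the labelled knockout on vehicle and 28.2, 24.9 and 24.6 CPM on clozapine. Only the wild-type vehicle group stood apart. With clozapine in wild type, Bdnf fell by 0.56 (edgeR adjusted p = 0.0154) and Vgf, a neurotrophin-induced secreted peptide, by 0.62 (edgeR adjusted p = 0.00282). In that comparison 0.816% of all tested genes passed. Rest itself had a difference of 0.10 (interval -0.19 to 0.38).

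Some markers of other cell types differed between genotypes in the averaged comparison in which the 6 subunits passed. Of 4 endothelial markers Flt1 (-0.18) and Tek (-0.24) were lower, with a summed level of 135 to 166 CPM in wild type and 129 to 136 CPM in the labelled knockout. Of 4 mural markers only Rgs5 (-0.22) passed and was lower, and of 3 oligodendrocyte precursor markers only Pdgfra (0.30) passed and was higher. The median log2 difference was -0.15 over the mural list and 0.03 over the precursor list. Mural sums overlapped between genotypes, with wild-type libraries at 118 to 145 CPM and labelled knockout libraries at 108 to 129 CPM. Pdgfrb, a mural marker, was not lower in the labelled knockout: 25.2 against 23.9 CPM on vehicle, 26.5 against 25.1 on clozapine (group means). The summed precursor markers ranged from 146 to 170.2 CPM in wild type and from 158 to 176 CPM in the labelled knockout. The olfactory bulb marker Cdhr1 was higher by 0.93, with 1.60 to 2.38 CPM in wild type and 2.33 to 4.66 CPM in the labelled knockout, while Tbx21 and Eomes of the same list were at most 0.577 CPM. None of the 6 excitatory neuron, 6 interneuron, 5 astrocyte, 6 oligodendrocyte and 5 microglia markers passed. Under clozapine alone Camk2a, whose promoter drives the Cre, was higher in the labelled knockout by 0.26 (edgeR adjusted p = 0.0377). The part of these cell types in the differences of the subunits was not tested.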

How the data were processed

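RNA sequencing of frontal cortex gave 12 libraries in 4 groups of 3, assigned from the labels. The submitters' processing notes name STAR 2.5.1b, featureCounts and the build GRCm38. Estimated counts were deposited by the authors, and 7.39% of values are not whole. Strand use and the handling of shared reads are not given in the sources used here. The counts were rounded, scaled by TMM and filtered with filterByExpr, which kept 17286 of 47069 genes and 99.9% of counts. A fit of all libraries with edgeR 4.0.16 (R 4.3.3; robust quasi-likelihood, group means) gave 7 contrasts, with Benjamini-Hochberg adjustment over all tested genes at 0.05. Replicates differed by more than counting error, so the spread between libraries sets the precision: the median standard error of a subunit was 0.06 (log2) for 3 against 3 libraries. Gene names, positions and exon lengths are from GENCODE M21 (GRCm38). The authors' annotation release is not given in the sources used here.

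The subunits and the other lists were chosen with earlier results of these data known, so no p-value was adjusted over a list. Values in every library are given for subunits past the threshold in any contrast, for the core subunits of each complex (Sin3a, Sin3b, Rcor1, Kdm1a, Chd4, Mta1, Ncor1, Tbl1xr1, Rest), and for the 2 of smallest p in each contrast. Others appear by range, or where they were singled out after their values were seen, as Sap30 and Brms1 were. The genes of the paralogue pairs, and the promoter motifs, were likewise chosen after the values were seen. Alternatives were DESeq2 1.42.0, limma-voom (limma 3.58.1), RLE factors, no low-count filter, a replicate block, 1 surrogate variable (sva 3.50.0), only the groups compared, a length and GC correction, unrounded counts and leaving out each library. The fit was tested on simulated data with known changes. Promoters were found for 31 of 37 subunits. Results for some genes of the other lists are not reported here.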

Additional observations from a re-analysis of the deposited data

How the results depend on the processing

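The count of subunits called between genotypes under vehicle moved most. It went from 2 in the reported analysis to 1 with only the groups compared in the fit. It was 6 with the length and GC correction, which added Brms1, Kdm1a, Zmym3 and Chd3. Of all genes, 9.16%, 6.48% and 8.8% were called, in the same order. Leaving out each library in turn gave 1 to 3 subunits, with 1 without wild-type vehicle 1 or 4 or labelled knockout vehicle 2. The share of all genes called then ranged from 3.52% to 9.84%. Under clozapine the count of 0 ranged from 0 to 1 over the left-out libraries. Chd3 was called without labelled knockout vehicle 5, where 2.43% of all genes were called. Averaged over treatments the 6 calls ranged from 5 to 6 over the left-out libraries and were 7 with the length and GC correction, which added Brms1. The share of all genes called was 6.58% to 10.7% over the left-out libraries and 11.2% with the correction. The replicate numbers gave no sign of pairing. Deviations of same-numbered libraries correlated between -0.0803 and 0.123, against -0.208 to 0.15 for the other pairs. With 10 same-numbered pairs and groups of 3, this cannot exclude a shared batch. With the replicate block the count was 0 under vehicle, against 2.23% of all genes. Averaged over treatments it was 3 (Sin3a, Tbl1x and Tbl1xr1), against 7.46% of all genes. There the edgeR adjusted p was 0.0503 for Brms1l, 0.0525 for Kdm1a and 0.0636 for Chd3. No genotype call of the reported analysis reversed direction in any analysis. Directions of the other subunits were not compared. The counts between clozapine and vehicle and in the interaction were 0 in all analyses. Hdac2 was not called in any, with log2 differences of 0.003 to 0.07 over the left-out libraries. Unrounded counts were tried after seeing the data and changed no call. DESeq2, no low-count filter and 1 surrogate variable each called 3 under vehicle, adding Ncor1. They called 10.4%, 5.78% and 12.1% of all genes, in the same order. Rest had the fewest counts of the subunits, 92 to 134 per library.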
